A study of Homo sapiens with 15 samples.

Results

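The cytochrome P450 (CYP), UDP-glucuronosyltransferase (UGT) and cytosolic sulfotransferase (SULT) genes were taken by name from the count tables of 2 senescent human cell lines. Every gene whose symbol has the form of a CYP, UGT or SULT family member and is listed in both tables was kept, except CYP51A1, which makes cholesterol, and the CYP26 genes, which break down retinoic acid; these exceptions were 4 genes. The list held 86 genes of 38415 gene names present in both tables, made up of 52 CYP, 21 UGT and 13 SULT genes. The naming rule uses no measured value, but it was set with earlier results of these data known.

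Total RNA was sequenced from 15 libraries in 5 groups of 3. IMR90 is a human lung fibroblast line, and all 9 of its libraries came from cells driven into senescence by the HRAS oncogene carrying G12V. Of these, 3 carried a non-targeting short hairpin RNA (shRNA; the control), and 6 carried an shRNA labelled against THBD. The titles of these 6 fall into 3 numbered 1 and 3 numbered 2, called set 1 and set 2 here; what that number stands for is not given in the sources used here. Huh7 is a line from a human hepatocellular carcinoma, and all 6 of its libraries came from cells made senescent with palbociclib, an inhibitor of cell cycle kinases; 3 carried a non-targeting control and 3 an shRNA against THBD. No library came from cells that were not senescent, so each comparison is between an shRNA and its control in cells treated to become senescent. The study asked whether THBD, which encodes the endothelial and epithelial surface protein thrombomodulin, is needed for senescence to be established. Since the labels do not say whether replicates were separate cultures, a p-value here reflects just the spread among these libraries, which may be technical.

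P450 enzymes are heme proteins that insert oxygen into lipids, steroids and drugs, most of them in the endoplasmic reticulum with electrons from P450 oxidoreductase (POR) and a few in mitochondria with electrons from ferredoxin (FDX1) and its reductase (FDXR). UGT enzymes then join glucuronic acid to the product, and SULT enzymes join a sulfonate group taken from the donor PAPS; both steps make it easier to excrete. In hepatocytes many of these genes are switched on by the nuclear receptors PXR (NR1I2), CAR (NR1I3), FXR (NR1H4) and HNF4A, and the CYP1 genes by the aryl hydrocarbon receptor (AHR). Fibroblasts are known to express few of them.

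The libraries held 18256773 to 21509229 counts in IMR90, 19328182 to 20020683 in the Huh7 control and 22479132 to 25236178 in Huh7 shTHBD. A floor of 3 counts, taken as the limit of detection, was 0.119 to 0.164 CPM (a count scaled to the total of its library) depending on the library; floors and intervals cover counting error only. THBD itself, the check of the labels, was at 16.5, 18.8 and 20.0 CPM in the IMR90 control, at 39.4, 36.6 and 37.3 CPM in the libraries labelled set 1, and at 10.5, 11.5 and 11.4 CPM in set 2. Against the control its log2 fold change was 1.09 ± 0.076 (SE; adjusted p = 1.3e-20) in the libraries labelled set 1, which goes against their label, and -0.81 ± 0.091 (adjusted p = 1.5e-12) in set 2. In Huh7 only 1 library, control replicate 3, held THBD counts (6), so the knockdown could not be checked there. Hepatocyte markers were all above 1 CPM in Huh7, while 7 of 10 (among them APOB, TTR and AHSG) were at 0 in the IMR90 control; all 10 fibroblast markers were above 1 CPM in IMR90.

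Upstream sequences of 6 members are shown because these genes carry the main contrasts: UGT2B15 rose in Huh7 while its relatives UGT2B11, UGT2B10 and UGT2B7 did not pass the test, CYP1A1 rose in Huh7 and in the libraries labelled set 1, and CYP3A5 moved in all 4 comparisons within a line. Each is the 250 bases before the RefSeq start site, 5′ to 3′ on the gene's strand in GRCh38.p14, in lower case with matches to any of 5 searched motifs in capitals. The UGT2B stretches lie at chr4:68670653-68670902 (minus strand, UGT2B15), chr4:69214749-69214998 (minus, UGT2B11), chr4:68815744-68815993 (plus, UGT2B10) and chr4:69096224-69096473 (plus, UGT2B7). Those of CYP1A1 and CYP3A5 lie at chr15:74725529-74725778 and chr7:99679997-99680246, both on the minus strand. RefSeq's start of UGT2B7 is 45111 bases from the outermost start of that gene in the IMR90 table, and the other 5 are within 8 bases.
UGT2B15: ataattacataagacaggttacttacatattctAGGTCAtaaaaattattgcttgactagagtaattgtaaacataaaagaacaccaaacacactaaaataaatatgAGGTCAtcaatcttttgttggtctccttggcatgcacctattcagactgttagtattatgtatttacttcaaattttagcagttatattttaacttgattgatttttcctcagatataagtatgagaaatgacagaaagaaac
UGT2B11: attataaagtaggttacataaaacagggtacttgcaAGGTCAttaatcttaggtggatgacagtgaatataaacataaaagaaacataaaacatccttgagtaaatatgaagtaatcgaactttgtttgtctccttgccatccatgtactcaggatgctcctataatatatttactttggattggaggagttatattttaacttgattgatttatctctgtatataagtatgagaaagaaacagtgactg
UGT2B10: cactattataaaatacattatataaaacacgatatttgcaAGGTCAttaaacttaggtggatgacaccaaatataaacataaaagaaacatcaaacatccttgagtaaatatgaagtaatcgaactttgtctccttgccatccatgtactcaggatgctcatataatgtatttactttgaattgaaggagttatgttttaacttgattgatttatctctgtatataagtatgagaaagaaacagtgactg
UGT2B7: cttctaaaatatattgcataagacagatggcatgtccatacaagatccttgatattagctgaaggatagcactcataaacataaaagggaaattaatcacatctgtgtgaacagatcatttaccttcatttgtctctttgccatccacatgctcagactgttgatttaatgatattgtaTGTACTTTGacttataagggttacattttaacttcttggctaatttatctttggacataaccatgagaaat
CYP1A1: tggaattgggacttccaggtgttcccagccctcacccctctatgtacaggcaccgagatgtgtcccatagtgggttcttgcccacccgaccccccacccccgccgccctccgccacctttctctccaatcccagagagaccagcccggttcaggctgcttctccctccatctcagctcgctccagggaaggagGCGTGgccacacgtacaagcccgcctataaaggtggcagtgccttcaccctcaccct
CYP3A5: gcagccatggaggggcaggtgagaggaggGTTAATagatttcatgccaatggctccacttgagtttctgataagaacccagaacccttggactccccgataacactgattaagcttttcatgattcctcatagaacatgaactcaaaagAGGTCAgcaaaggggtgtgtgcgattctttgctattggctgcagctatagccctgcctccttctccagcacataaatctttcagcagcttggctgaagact
The motifs, searched on both strands, were AGGTCA (a nuclear receptor half-site), GCGTG (the AHR core), GTTAAT (an HNF1 half-site), CAAAGTNCA (an HNF4A site) and TGANTCA (an AP-1 site); none overlaps another in these 6 stretches. UGT2B15 held AGGTCA at 217 and 143 bases before the start, UGT2B11 held it once at 214 and UGT2B10 once at 210, and UGT2B7 held instead the HNF4A letters at 71. CYP1A1 held the AHR core at 57 bases before the start. Of 35116 human promoters of the same length, 12.1% held AGGTCA, 32.2% GCGTG, 6.23% GTTAAT, 0.94% CAAAGTNCA and 6.57% TGANTCA; among the 62 members matched to a promoter the counts were 17, 13, 9, 6 and 1. After alignment the UGT2B15 stretch matched UGT2B11 at 74.0% and UGT2B7 at 62.8% of 250 bases, against 91.6% between UGT2B10 and UGT2B11. A match of letters is a description and not a binding site.

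The liver line held far more of these transcripts than the fibroblasts. The 86 genes summed to 564 to 584 CPM in the Huh7 control and to 90.7 to 93.2 CPM in the IMR90 control. A mean of at least 1 CPM was reached by 35 members in the Huh7 control and by 13 in the IMR90 control, and 12 and 52 members were at 0 in all 3 libraries. The 2 tables were counted and scaled separately, so a level set across lines is a description only.

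Per kilobase of exon, SULT1C4, a sulfotransferase high in fetal tissues, led the Huh7 control at 20.9 CPM per kilobase, and its 3 libraries (19.8 to 21.5) lay above those of SULT2A1 (17.2 to 18.3), which sulfonates DHEA and bile acids. Next came CYP2S1, a P450 of epithelia, at 15.8, CYP27A1, the mitochondrial sterol hydroxylase of bile acid synthesis, at 13.6, and UGT2A3, a bile acid UGT, at 11.8 CPM per kilobase; the libraries of each of these overlapped those of its neighbour. CYP3A5, a drug-oxidising P450, followed at 6.75, apart from UGT2A3, and UGT2B4, CYP4F3, UGT2B7 and UGT2B15 lay between 5.56 and 4.85 CPM per kilobase. CYP3A4, the leading adult liver P450, was among the members that were too low to test.

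In the IMR90 control CYP2S1 led at 9.85 CPM per kilobase (9.10 to 10.7 in its libraries) and stood apart from all others. CYP20A1, a P450 with no settled substrate, CYP27A1, CYP2U1, a fatty acid hydroxylase, and CYP4V2, the fatty acid hydroxylase of the retina, lay between 1.72 and 1.35 CPM per kilobase, and their libraries overlapped. The place of CYP20A1 depends on its gene length, which is 10619 bases in IMR90 and 3079 in Huh7. In CPM it was at 18.3 in the IMR90 control and 9.92 in the Huh7 control, the reverse of its order per kilobase (1.72 and 3.22). SULT4A1, a brain sulfotransferase, was at 0.82 CPM per kilobase, and CYP2R1 and CYP27B1, which activate vitamin D in turn, SULT1C4 and CYP2D7, a relative of CYP2D6, lay between 0.58 and 0.36. No UGT was among these 10. All 9 UGT1A members were at 0 in every IMR90 library, and of the UGT2B members UGT2B7 alone had counts. From 40.3% (UGT1A7) to 77.9% (UGT1A3) of the exon bases of a UGT1A gene are shared with other genes in IMR90. Fragments there were not counted, so the UGT1A values cover only the unshared part of each gene.

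**Figure D1:**
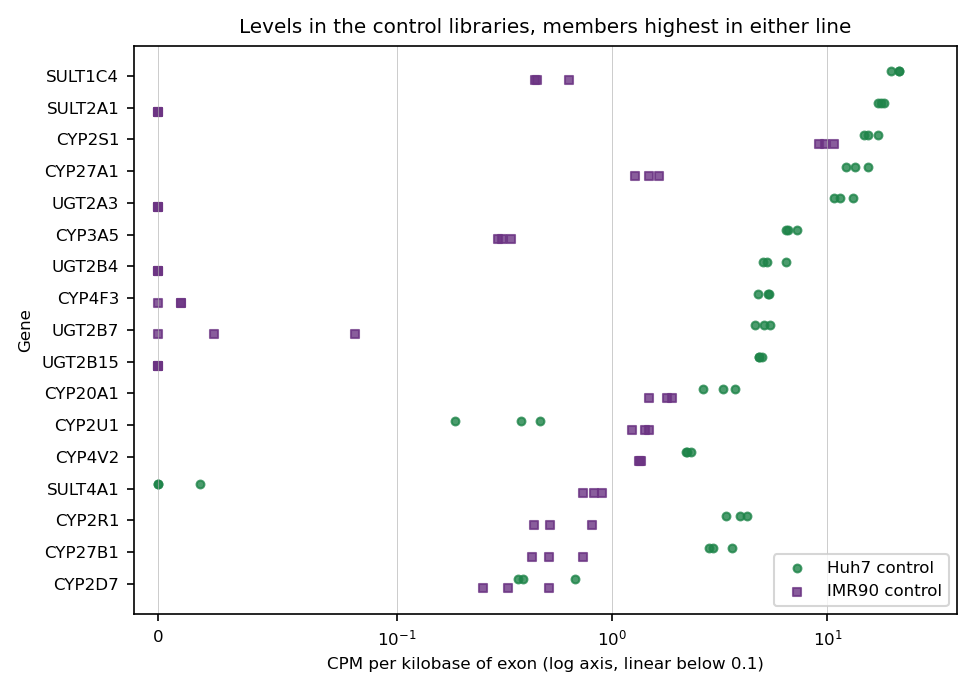
Level of the members that rank in the first 10 of either line, in CPM per kilobase of exon on a log axis (linear below 0.1), 1 point per control library. Huh7 points run from 20.9 (mean of SULT1C4) down to 0 for SULT4A1, and IMR90 points are at 0 for SULT2A1, UGT2A3, UGT2B4 and UGT2B15. CYP20A1 points of the lines cannot be set against each other, since its gene length is 3079 bases in Huh7 and 10619 in IMR90.

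In Huh7, 44 members were high enough to be tested and the other 42 were not; the member highest in a single library among those left out had 17 counts. Of the 44, 9 rose and 15 fell with shTHBD at an adjusted p under 0.05 (edgeR's quasi-likelihood test, Benjamini-Hochberg over all genes). Of 17474 genes tested, 53.1% passed, 25.9% higher and 27.3% lower, so a count of 24 of 44 members (54.5%) is near the background. The members' median log2 fold change was -0.37, against 0.0020 over all genes tested, and 14 of the 44 (31.8%) passed with at least a 2-fold change, against 13.6% of all genes. Of the 14, CYP4F12 and CYP17A1 were high enough to be tested only through the control, the group where they are highest. All genes passed the same filter, and its part in this share was not tested. In 21 of the 24 the 3 shTHBD libraries did not overlap the 3 controls; the exceptions were UGT2A1, UGT2B17 and CYP2S1. With CYP8B1, UGT2B11 and CYP3A7, which separated without passing the test, 24 of the 44 (54.5%) had no overlap, against 58.8% of all genes tested. Because these are bulk samples, fewer cells of a type and less RNA per cell cannot be told apart.

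**Figure D2:**
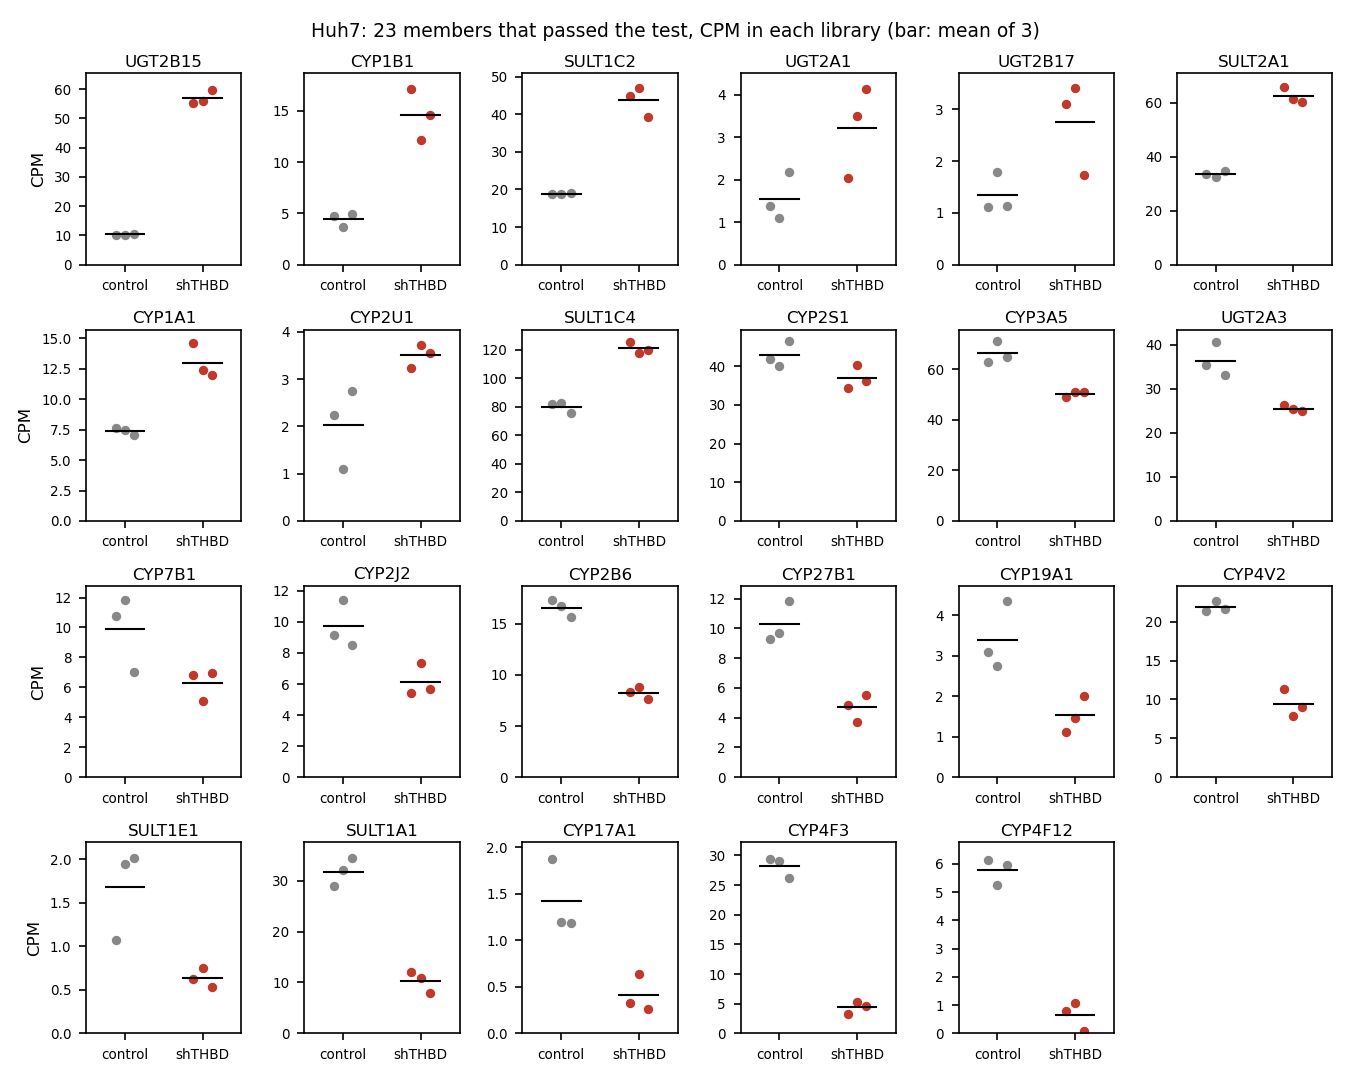
CPM of 23 of the 24 members that passed the test in Huh7, 1 panel per gene with its own axis from 0, 3 control and 3 shTHBD libraries as points and the mean of each group as a bar. Panels are ordered from the largest rise (UGT2B15) to the largest fall (CYP4F12).

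Members of the UGT2 family split. Of its 10 members 8 were tested, 3 rose and 1 fell, where 25.9% of all genes tested in Huh7 rose and 27.3% fell. UGT2B15, which glucuronidates androgens and drugs such as oxazepam, was at 10.2, 10.3 and 10.6 CPM in the control and at 55.3, 55.8 and 59.8 CPM with shTHBD. All 3 shTHBD libraries were far above all controls, and the log2 fold change was 2.43 ± 0.097 (SE; 5.40-fold, adjusted p = 3.7e-20). UGT2B17, its closest relative and the main testosterone UGT, was at 1.12, 1.80 and 1.14 CPM in the control and at 3.11, 3.41 and 1.74 CPM with shTHBD. Its shTHBD replicate 3 lay inside the control range, and the log2 fold change was 0.99 ± 0.34 (adjusted p = 0.013).

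UGT2B15 and UGT2B17 share 27.5% of the 50-base words in their GENCODE 29 transcripts, so some of the reads counted for the lower gene may belong to the higher; the part of this in the UGT2B17 value was not tested. Without Huh7 control replicate 1 or 3, or without shTHBD replicate 1 or 2, UGT2B17 no longer passed (adjusted p = 0.057, 0.058, 0.051 and 0.066). UGT2A1, an olfactory and airway UGT, was at 1.37, 1.10 and 2.17 CPM in the control and at 2.03, 3.49 and 4.14 CPM with shTHBD (log2 fold change 1.03 ± 0.33, adjusted p = 0.0078). Its groups overlapped, the test was lost without control replicate 2 (adjusted p = 0.064) or shTHBD replicate 3 (adjusted p = 0.056), and 39.9% of its exon bases are also exon of UGT2A2.

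Other genes of the UGT2B cluster on chromosome 4 did not pass the test. UGT2B4, a bile acid and opioid UGT, was at 13.2, 16.1 and 12.6 CPM in the control and at 11.9, 12.4 and 13.6 CPM with shTHBD (log2 fold change -0.17 ± 0.13, adjusted p = 0.29). UGT2B7, which glucuronidates morphine, was at 11.5, 10.4 and 12.3 CPM against 11.04, 9.95 and 9.34 CPM (-0.20 ± 0.14, adjusted p = 0.23). The groups overlapped in both genes. UGT2B11 (0.40 ± 0.25) and UGT2B10 (0.12 ± 0.59) did not pass either, at an adjusted p of 0.18 and 0.88. UGT2A3 was at 35.3, 40.6 and 33.1 CPM in the control and fell to 26.3, 25.3 and 24.8 CPM (log2 fold change -0.54 ± 0.094, adjusted p = 1.0e-05). The summed UGT2B counts, which do not depend on how reads were divided among the 7 members, rose from 40.3 ± 1.31 to 86.7 ± 2.04 CPM (SD, n = 3; 2.11-fold, adjusted p = 1.7e-13 by edgeR).

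Only UGT1A1, which glucuronidates bilirubin, was tested among the 9 UGT1A members, and it did not pass (log2 fold change 0.28 ± 0.23, adjusted p = 0.30). The UGT1A genes share their last exons, and a read in these belongs to all of them. Summed UGT1A counts were at 4.22, 3.75 and 4.501 CPM in the control and at 5.52, 6.54 and 5.16 CPM with shTHBD, and although these do not overlap the sum did not pass (log2 fold change 0.43 ± 0.20, adjusted p = 0.063).

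Among the sulfotransferases 3 rose and 2 fell of 6 tested, and the split ran between subfamilies. The background in Huh7 was 53.1% of all genes passing, 25.9% higher and 27.3% lower. SULT1C2 and SULT1C4, which lie on the plus strand of chromosome 2 (chr2:108288639-108309915 and chr2:108377911-108388989 in the IMR90 table's GRCh38 gene models), both rose. SULT1C2 went from 18.8, 18.7 and 19.1 CPM to 44.9, 47.1 and 39.4 CPM (log2 fold change 1.19 ± 0.093, adjusted p = 1.0e-12). SULT1C4, the most abundant member, went from 82.0, 82.4 and 75.7 CPM to 125.4, 118.0 and 119.6 CPM (0.57 ± 0.066, adjusted p = 7.0e-09). SULT2A1 went from 33.7, 32.7 and 34.8 CPM to 66.0, 61.6 and 60.2 CPM (0.86 ± 0.079, adjusted p = 3.9e-11). In each of the 3 genes every shTHBD library was above every control.

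SULT1A1, the main phenol sulfotransferase of adult liver, moved the other way, from 28.9, 32.0 and 34.5 CPM to 12.1, 10.9 and 7.92 CPM (log2 fold change -1.65 ± 0.12, adjusted p = 2.0e-13). SULT1E1, the estrogen sulfotransferase, was low, at 1.07, 1.95 and 2.02 CPM in the control and at 0.62, 0.75 and 0.53 CPM with shTHBD (-1.41 ± 0.44, adjusted p = 0.0070). The groups of both genes did not overlap. The test of SULT1E1 was lost without control replicate 2 (adjusted p = 0.053) or 3 (0.052).

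The P450s that act on fatty acids and eicosanoids showed the deepest falls. Of 14 members 6 were tested, 4 fell and 1 rose, where 27.3% of all genes tested in Huh7 fell and 25.9% rose. The summed level of the 14 went from 68.9 ± 2.70 to 25.1 ± 1.74 CPM (SD, n = 3). CYP4F3, which inactivates leukotriene B4 and hydroxylates arachidonic acid, was at 29.4, 29.1 and 26.1 CPM in the control and at 3.24, 5.35 and 4.54 CPM with shTHBD (log2 fold change -2.72 ± 0.14, adjusted p = 5.6e-17). CYP4F12, a related hydroxylase whose gene follows CYP4F3 on chromosome 19, went from 6.15, 5.25 and 5.95 CPM to 0.79, 1.07 and 0.089 CPM (-3.15 ± 0.36, adjusted p = 4.3e-09). Neither gene's groups came near each other. CYP4F12 was high enough to be tested only through the control libraries, where it is highest, so its p-value follows a selection on that group.

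CYP4F11, another gene of that cluster, was at 0.91, 1.15 and 0.57 CPM against 0.79, 1.07 and 0.49 CPM and did not pass (-0.19 ± 0.49, adjusted p = 0.77). CYP4V2 fell from 21.5, 22.7 and 21.6 CPM to 11.3, 7.93 and 9.08 CPM (-1.25 ± 0.13, adjusted p = 5.7e-10). CYP2J2, the arachidonic acid epoxygenase, fell from 9.15, 11.4 and 8.54 CPM to 5.40, 7.37 and 5.65 CPM (-0.69 ± 0.17, adjusted p = 8.2e-04). The groups of these last 2 did not overlap. CYP2U1 rose from 2.24, 1.10 and 2.74 CPM to 3.24, 3.73 and 3.56 CPM (0.76 ± 0.29, adjusted p = 0.028), but without control replicate 2 its log2 fold change was 0.46 (adjusted p = 0.21), and without shTHBD replicate 2 its adjusted p was 0.057.

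Among the P450s that act on drugs and other foreign compounds, 2 rose and 4 fell of 13 tested. The shares over all genes tested in Huh7 were 25.9% higher and 27.3% lower. The 2 that rose are the CYP1 genes that answer to AHR. CYP1B1, which hydroxylates estrogens and aromatic hydrocarbons, was at 4.78, 3.70 and 4.97 CPM in the control and at 17.1, 12.2 and 14.6 CPM with shTHBD (log2 fold change 1.68 ± 0.17, adjusted p = 2.2e-10). CYP1A1, the classical AHR target, went from 7.67, 7.49 and 7.04 CPM to 14.6, 12.4 and 11.97 CPM (0.78 ± 0.14, adjusted p = 2.3e-05). Every shTHBD library was above every control for both genes. Of the exon bases of CYP1B1, 13.1% overlap other genes, the antisense CYP1B1-AS1 among them.

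CYP2B6, a target of CAR and PXR, fell from 17.3, 16.7 and 15.7 CPM to 8.34, 8.84 and 7.61 CPM (log2 fold change -1.03 ± 0.13, adjusted p = 4.5e-08). CYP3A5 fell from 63.1, 71.0 and 64.7 CPM to 48.8, 51.2 and 50.9 CPM (-0.43 ± 0.075, adjusted p = 1.3e-05). Both genes had no overlap between groups. CYP2S1 passed narrowly, at 41.7, 40.1 and 46.5 CPM against 34.4, 40.3 and 36.1 CPM (-0.24 ± 0.087, adjusted p = 0.022); its groups overlapped, and it did not pass without control replicate 1 or 3 or shTHBD replicate 1 (adjusted p = 0.051, 0.12 and 0.13).

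Among P450s of endogenous steroids, sterols and vitamin D, 3, 4 and 2 were tested, and 2, 1 and 1 of these passed. All 4 that passed fell. Of all genes tested in Huh7, 53.1% passed, 25.9% higher and 27.3% lower. CYP17A1, the 17-hydroxylase of steroid synthesis, went from 1.88, 1.20 and 1.19 CPM to 0.33, 0.63 and 0.27 CPM (log2 fold change -1.80 ± 0.50, adjusted p = 0.0028), with 41.9% of its exon bases shared with WBP1L. CYP19A1, the aromatase that makes estrogens, went from 3.10, 2.75 and 4.35 CPM to 1.12, 1.47 and 2.002 CPM (-1.18 ± 0.31, adjusted p = 0.0016). CYP27B1, which makes the active form of vitamin D, went from 9.30, 9.69 and 11.9 CPM to 4.86, 3.69 and 5.52 CPM (-1.16 ± 0.18, adjusted p = 1.3e-06). The controls lay above the shTHBD libraries in all 3 genes. CYP17A1 was high enough to be tested only through the control libraries, where it is highest, so its p-value follows a selection on that group.

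CYP7B1, the oxysterol hydroxylase, fell from 10.8, 11.8 and 7.04 CPM to 6.85, 5.07 and 6.94 CPM (log2 fold change -0.68 ± 0.18, adjusted p = 0.0020), with the lowest control only just above the highest shTHBD library. CYP27A1 did not pass, at 45.8, 39.9 and 36.3 CPM against 47.2, 48.3 and 43.6 CPM (0.16 ± 0.088, adjusted p = 0.13). Without Huh7 control replicate 1 it did (0.26, adjusted p = 0.030).

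**Figure D3:**
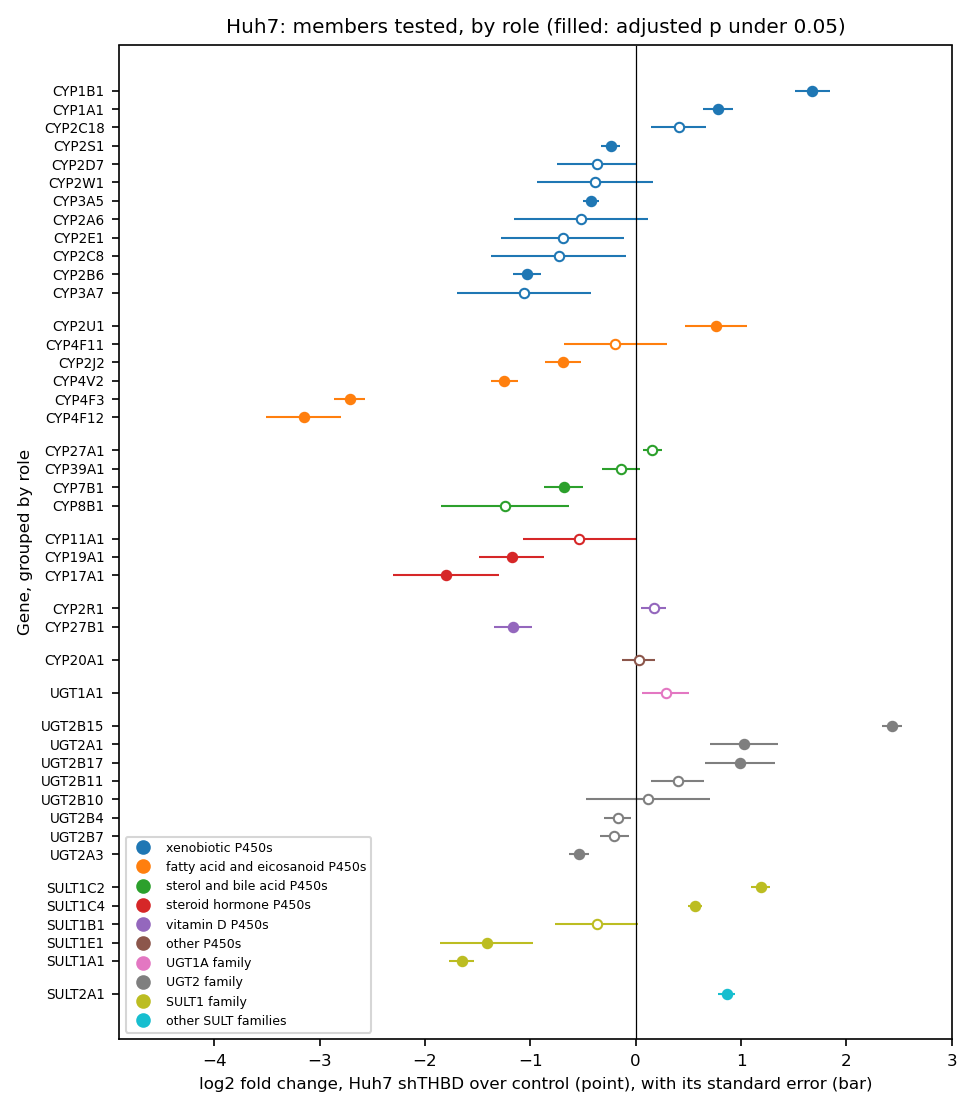
log2 fold change of shTHBD over control in Huh7 for 43 of the 44 members tested, 1 point per gene with its standard error as a bar, coloured and grouped by role; filled points have an adjusted p under 0.05. Points of the steroid P450s and most sterol and fatty acid P450s lie left of 0, and the furthest right is UGT2B15 at 2.43.

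Genes listed beside these enzymes moved in Huh7 as well. The background for the list counts in Huh7, here and below, is 53.1% of all genes passing, 25.9% higher and 27.3% lower. Of 13 nuclear receptor and AHR genes tested, 7 fell and 1 rose, with a median log2 fold change of -0.23. NR1I2, the PXR gene, fell from 15.4 ± 0.15 to 2.45 ± 0.97 CPM (SD, n = 3; log2 fold change -2.68 ± 0.19, adjusted p = 8.3e-14 by edgeR). NR1H4, the FXR gene, fell by 1.80 and NR1H3, the oxysterol receptor LXR-alpha, by 1.59 on that scale, with an adjusted p of 3.1e-17 and 1.6e-14. The 1 that rose, named after its value was seen, was AHR, from 98.7 ± 2.09 to 129.3 ± 6.06 CPM (0.36 ± 0.065, adjusted p = 1.6e-05).

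The AHR targets outside the family did not move as one. TIPARP rose (log2 fold change 1.03 ± 0.062, adjusted p = 1.6e-15), while ALDH3A1 fell and NQO1, which also answers to NRF2, fell by 2.07 (adjusted p = 5.0e-24). Of 8 electron donor and PGRMC genes tested 5 fell and none rose at that threshold, with CYB5A at -0.76, FDXR at -0.54 and POR at -0.52 on the log2 scale. Of 8 heme synthesis genes 6 fell and 1, ALAS1, rose, with UROS at -1.01 and PPOX at -0.66. Of 9 genes that handle nucleotide sugars or PAPS and its by-product, 4 fell and 1, PAPSS1, rose. SLC35D1, the carrier of UDP-glucuronic acid, was at -0.99, UGP2 at -0.80 and BPNT1 at -0.58. Of 27 other drug and lipid enzymes tested 17 fell and 3 rose, CES1 and ADH1C among them, and among those of at least 5 CPM the deepest falls were in NQO1, the steroid sulfatase STS (-1.99) and AKR1C1 (-1.54).

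Markers of cell type moved with these groups. Of 10 hepatocyte markers 8 fell and 2 rose (APOH and FGB), with a median log2 fold change of -1.09, and their summed level went from 7511 to 7733 CPM in the control to 5328 to 5716 CPM; none of the 10 was at 0. APOB was at -2.03, SERPINA1 at -1.53 and AHSG at -1.46 on the log2 scale. Of 8 fibroblast markers tested 5 rose and none fell at that threshold, and all 10 summed to 1059 to 1108 CPM in the control and 1683 to 1745 CPM with shTHBD, with THY1 at 0 in shTHBD. COL1A2 was at 1.04, COL3A1 at 0.93 and VIM at 0.83. Of 5 epithelial markers 3 fell, SOX9 (-2.02), CDH1 (-1.05) and KRT7, and their sum went from 1159 to 1253 CPM to 814.3 to 825 CPM. Leukocyte markers summed to 9.78 to 10.5 CPM and 8.59 to 9.21 CPM with none passing of 3 tested, and endothelial markers to 14.1 to 15.7 CPM and 9.39 to 10.7 CPM, with PECAM1 at -0.72; PECAM1 and CDH5 fell and VWF rose of 3 tested, and TEK at 0 in shTHBD. The part of these changes, and of the greater depth of the shTHBD libraries, in the members' values was not tested.

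In IMR90 18 members were tested, 15 CYP and 3 SULT genes; the other 68 were not, and 40 of these had no count in any of the 9 libraries. Both shTHBD groups are compared with the same 3 controls, so their values against control are not independent of each other and are given side by side. In the libraries labelled set 1, 5 members rose and 3 fell (8 of 18, 44.4%), against 53.8% of 15411 genes tested, 27.3% higher and 26.5% lower. In set 2, 4 rose and 6 fell (10 of 18, 55.6%), against 67.3% of all genes, 33.2% higher and 34.1% lower. The members' medians were 0.17 and -0.11 on the log2 scale, and those of all genes -0.0019 and 0.0068. Compared directly, 9 members were higher in the libraries labelled set 1 than in set 2 and 3 were lower (12 of 18, 66.7%), against 69.5% of all genes, 33.9% higher and 35.6% lower, with a median of 0.50 against -0.03 over all genes. The shares that passed in either direction are near or below the background, while between the sets more members were higher and fewer lower than among all genes. With at least a 2-fold change, 22.2% of members passed in the libraries labelled set 1, 27.8% in set 2 and 44.4% between the sets, against 8.12%, 17.8% and 21.1% of all genes. These are 4, 5 and 8 of 18 members. Of the 4, CYP4F11, CYP1A1 and CYP2E1 were high enough to be tested only through the libraries labelled set 1, and SULT1C4 only through the control. In each case that is the group where the gene is highest. The same 4 are among the 8, and among the 9 members higher in the libraries labelled set 1 than in set 2. All genes passed the same filter, and its part in these shares was not tested. Groups did not overlap in 8, 9 and 12 of the 18, against 59.4%, 70.0% and 72.3% of all genes.

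**Figure D4:**
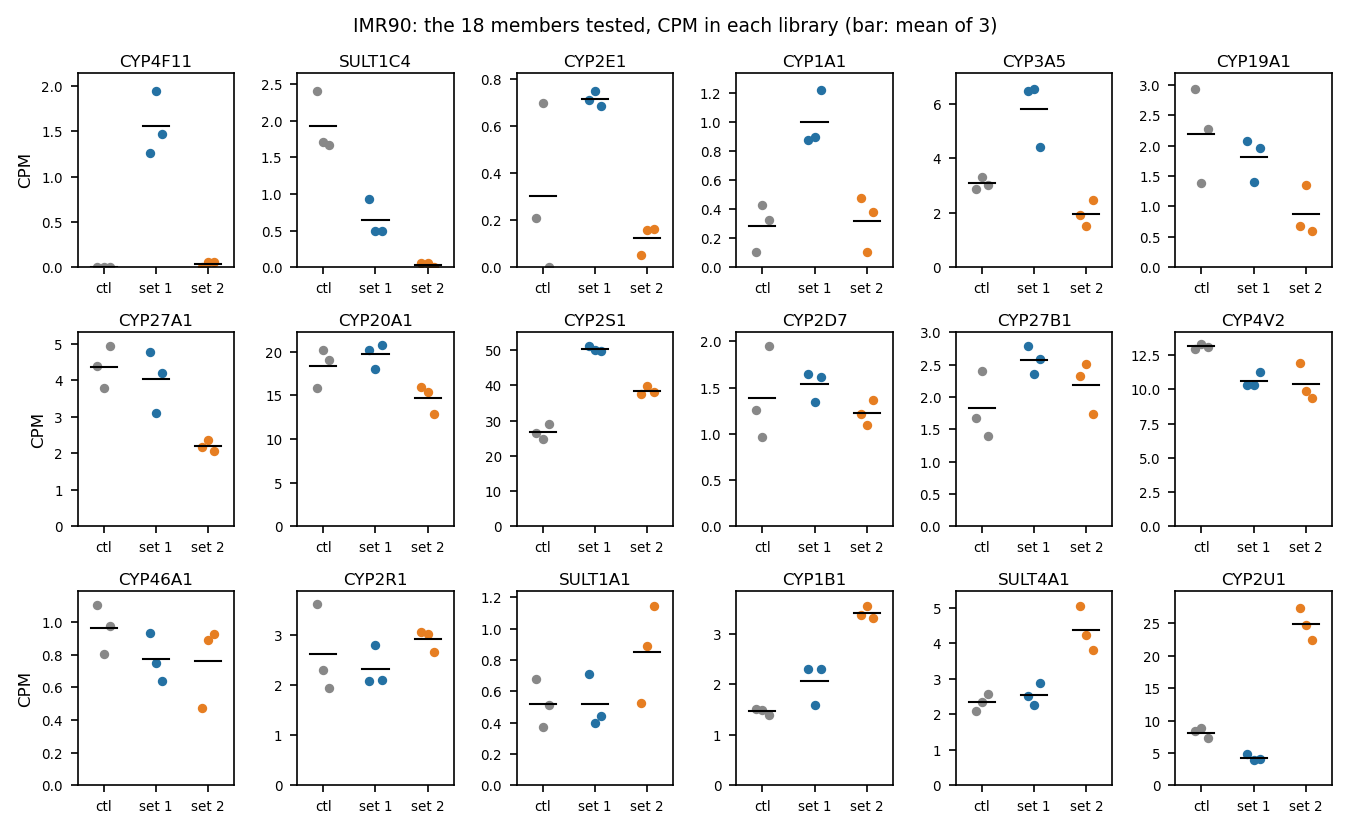
CPM of the 18 members tested in IMR90, 1 panel per gene with its own axis from 0, with 3 control (ctl), 3 set 1 and 3 set 2 libraries as points and group means as bars. Panels run from the gene with the highest ratio of set 1 to set 2 (CYP4F11) to the lowest (CYP2U1).

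The fatty acid hydroxylases CYP4F11 and CYP2U1 differed between the sets in opposite directions. CYP4F11, which inactivates vitamin K and hydroxylates fatty acids, had no count in any control library, 23, 39 and 30 counts in the libraries labelled set 1, and 0, 1 and 1 in set 2. At 1.57 CPM over the group, the libraries labelled set 1 were at least 31.0-fold above the floor of 3 counts over the control group (edgeR adjusted p = 2.3e-11). CYP4F11 was high enough to be tested only through the libraries labelled set 1, so that p-value follows a selection on the group where it is high. Against set 2 the ratio of the summed counts was 44.3, with a 95% exact interval of 11.9 to 371 that covers counting error only. Its relative CYP4F3, which fell in Huh7, had at most 2 counts in any IMR90 library.

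CYP2U1 was at 8.38, 8.78 and 7.30 CPM in the control, at 4.82, 3.85 and 4.06 CPM in the libraries labelled set 1, and at 27.3, 24.8 and 22.4 CPM in set 2. None of the 3 groups overlapped: the libraries labelled set 1 were all below the control and those of set 2 all above it. The log2 fold change was -0.89 ± 0.13 (adjusted p = 3.3e-08) and 1.53 ± 0.10 (adjusted p = 5.4e-22), and between the sets -2.42 ± 0.12 (5.33-fold, adjusted p = 4.4e-30). Of its exon bases 9.10% overlap other genes, an antisense gene among them, and the counting options in the header of the IMR90 table name no strand.

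CYP3A5 also split the sets. It was at 2.88, 3.32 and 3.02 CPM in the control, at 6.46, 6.55 and 4.40 CPM in the libraries labelled set 1, and at 1.90, 1.52 and 2.45 CPM in set 2, again with no overlap. The log2 fold change was 0.97 ± 0.19 (adjusted p = 7.6e-06) and -0.74 ± 0.22 (adjusted p = 0.0023), and 1.71 ± 0.20 between the sets (adjusted p = 1.1e-11). CYP2S1 rose in both, from 26.4, 24.7 and 29.1 CPM to 51.2, 50.2 and 49.7 CPM in those labelled set 1 (0.96 ± 0.063, adjusted p = 2.2e-22) and to 37.4, 39.7 and 38.2 CPM in set 2 (0.44 ± 0.065, adjusted p = 1.3e-08). The sets differed by 0.53 ± 0.060 (adjusted p = 3.4e-12), with all libraries labelled set 1 above all of set 2.

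CYP1B1 passed against the control in set 2 and CYP1A1 in the libraries labelled set 1. CYP1B1 was at 1.52, 1.499 and 1.40 CPM in the control, at 2.30, 1.60 and 2.30 CPM in the libraries labelled set 1 and at 3.37, 3.55 and 3.32 CPM in set 2. It rose in set 2 (log2 fold change 1.13 ± 0.24, adjusted p = 3.8e-05) and did not pass in the libraries labelled set 1 (0.54 ± 0.26, adjusted p = 0.070). The difference between the sets, -0.59 ± 0.23 (adjusted p = 0.021), was lost without set 1 replicate 2 (adjusted p = 0.13) or set 2 replicate 2 (0.056).

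CYP1A1 and CYP2E1, the ethanol-oxidising P450, had group means under 1 CPM and are named after their values were seen. Both were high enough to be tested only through the libraries labelled set 1, where they are highest, so their p-values follow a selection on that group. CYP1A1 was at 0.10, 0.43 and 0.33 CPM in the control and at 0.88, 0.90 and 1.22 CPM in the libraries labelled set 1 (1.84 ± 0.50, adjusted p = 0.0014), against 0.47, 0.10 and 0.38 CPM in set 2 (1.77 ± 0.50 between the sets, adjusted p = 0.0013). CYP2E1 was at 0.21, 0.70 and 0 CPM in the control and at 0.71, 0.75 and 0.68 CPM in the libraries labelled set 1 (1.34 ± 0.57, adjusted p = 0.041). Its groups overlapped; without control replicate 2 its log2 fold change was 2.83, without control replicate 3 it was 0.71 (adjusted p = 0.33), and it did not pass without control replicate 1 or any 1 of the 3 libraries labelled set 1 (adjusted p from 0.081 to 0.15).

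SULT1C4, the leading member in Huh7, nearly left the IMR90 libraries of set 2. It had 46, 32 and 36 counts in the control (2.41, 1.71 and 1.67 CPM), 17, 10 and 10 in the libraries labelled set 1 and 1, 1 and 0 in set 2. The ratio of summed counts of control to set 2 was 54.3, with a 95% exact interval of 14.7 to 454 (edgeR adjusted p = 2.0e-12). SULT1C4 was high enough to be tested in IMR90 only through the control libraries, where it is highest. In the libraries labelled set 1 the log2 fold change was -1.54 ± 0.38 (adjusted p = 3.6e-04), and they were 17.8 times set 2 (interval 4.59 to 152). SULT4A1 rose in set 2, from 2.10, 2.36 and 2.56 CPM to 5.06, 4.23 and 3.81 CPM (0.82 ± 0.20, adjusted p = 3.1e-04), and was at 2.52, 2.25 and 2.89 CPM in the libraries labelled set 1 (0.18 ± 0.22, adjusted p = 0.51).

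A sterol P450, CYP27A1, and the steroid P450 CYP19A1 fell in set 2, and each also differed between the sets. CYP27A1 was at 4.40, 3.80 and 4.93 CPM in the control, at 4.77, 3.10 and 4.21 CPM in the libraries labelled set 1 and at 2.16, 2.35 and 2.07 CPM in set 2 (-1.08 ± 0.20, adjusted p = 2.6e-06; between the sets 1.01 ± 0.20, adjusted p = 1.2e-05). CYP19A1 was at 2.93, 1.39 and 2.28 CPM, at 2.08, 1.40 and 1.96 CPM, and at 0.68, 1.36 and 0.60 CPM in the same order (-1.40 ± 0.32 in set 2, adjusted p = 1.0e-04; between the sets 1.17 ± 0.33, adjusted p = 0.0014). In both genes the set 2 libraries lay below all others, for CYP19A1 by 1.36 against 1.39 CPM at the closest.

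Smaller changes were seen in CYP4V2 and CYP20A1. CYP4V2 was at 12.99, 13.3 and 13.1 CPM in the control, at 10.3, 10.3 and 11.3 CPM in those labelled set 1 (-0.25 ± 0.11, adjusted p = 0.040) and at 11.9, 9.88 and 9.37 CPM in set 2 (-0.42 ± 0.11, adjusted p = 3.5e-04). Its test in the libraries labelled set 1 was lost without any 1 of the 3 controls or without set 1 replicate 1 or 2 (adjusted p from 0.062 to 0.11). CYP20A1 fell in set 2, from 15.8, 20.1 and 19.0 CPM to 15.9, 15.4 and 12.9 CPM with overlapping groups (-0.40 ± 0.095, adjusted p = 1.7e-04). CYP2R1, CYP27B1 and CYP2D7 passed in neither set, with log2 fold changes from -0.28 to 0.56; CYP27B1 in the libraries labelled set 1 was at 0.56 ± 0.25 (adjusted p = 0.054) and passed without control replicate 2 (0.80, adjusted p = 0.016).

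The supporting genes of IMR90 differed between the sets too. The background for the list counts here and below is the share of all genes that passed. It was 53.8% in the libraries labelled set 1 (27.3% higher, 26.5% lower) and 67.3% in set 2 (33.2% higher, 34.1% lower). Of 8 electron donor and PGRMC genes 7 rose and 1 fell in set 2, led by FDXR (log2 fold change 1.51), CYB5A (0.81) and PGRMC1 (0.79). In the libraries labelled set 1, 3 rose and 3 fell, with CYB5A at -1.64, PGRMC1 at 0.46 and FDXR at -0.35. Of the 9 genes for nucleotide sugars and PAPS, 7 fell and 1 rose in the libraries labelled set 1 (UGP2 -0.62, SLC35D1 -0.57, SLC35B2 -0.45). In set 2, 3 of them rose and 2 fell (PAPSS2 0.39, UGP2 0.29, SLC35D1 -0.29). AHR fell in both (-0.21 and -0.72), while NQO1 (0.98 and 0.83) and TIPARP (0.49 and 0.45) rose in both; these values share their controls.

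Of 8 heme synthesis genes 2 rose and 5 fell in the libraries labelled set 1 (PPOX -0.64, UROD -0.64, ALAD -0.51), and 2 rose and 4 fell in set 2 (UROS -1.04, PPOX -0.34). Of 8 nuclear receptor and AHR-related genes tested, 1 rose (ARNT 0.29) and 2 fell (VDR -0.42 and AHR -0.21) in the libraries labelled set 1. In set 2, 1 of the 8 rose and 5 fell, PPARA (-1.40) and RXRA (-0.85) among them. Of 15 other enzymes tested 7 rose and 4 fell, and 9 rose and 4 fell (AKR1C1 1.11 and NNMT -0.98 in the first; STS -2.67 and NNMT 1.85 in the second). The summed level of 10 fibroblast markers was 6490 to 6581 CPM in the control, 4745 to 4836 CPM in the libraries labelled set 1 and 12643 to 12822 CPM in set 2, with none at 0. The markers did not all follow their sum: PDGFRA and PDGFRB rose and 7 fell in the libraries labelled set 1, and 6 rose while PDGFRA, PDGFRB, THY1 and FAP fell in set 2. Hepatocyte markers summed to 15.4 to 17.6, 131.2 to 141.4 and 8.64 to 9.30 CPM, of which SERPINA1 alone reached 1 CPM. Leukocyte markers summed to 4.09 to 4.61, 11.9 to 13.4 and 1.20 to 1.96 CPM with CD3E at 0 in all groups, epithelial markers to 60.8 to 65.3, 46.4 to 49.0 and 26.4 to 32.7 CPM, and endothelial markers to 5.94 to 8.69, 3.91 to 4.497 and 6.01 to 7.24 CPM. The part of these shifts in the members' values was not tested.

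In both lines 16 members were tested. In set 2, 7 members passed that also passed in Huh7 (7 of 24 and 7 of 10): CYP1B1 and CYP2U1 rose and CYP19A1, CYP3A5 and CYP4V2 fell in both, while CYP2S1 and SULT1C4 went opposite ways. In the libraries labelled set 1, 6 such members passed (6 of 24 and 6 of 8), of which CYP1A1 rose and CYP4V2 fell in both. These are 43.8% and 37.5% of the 16, near the 46.1% and 36.9% of 12645 genes tested in both lines that passed in both. The direction was the same in 5 of the 7 and 2 of the 6, against 76.2% and 51.9% of those genes. The effects themselves were compared in a joint fit of the genes present in both tables, in which 45 members were tested. Against set 2, 4 members had a higher effect in Huh7 and 7 a lower one, where 44.0% of 16682 genes differed, 22.8% higher and 21.2% lower. Against the libraries labelled set 1, 4 were higher and 8 lower, where 47.5% of genes differed, 23.6% higher and 23.9% lower. The members' shares (24.4% and 26.7%) are below the background, and many members have too few counts in IMR90 for a difference to show.

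Members whose effect in Huh7 differed in the same direction from both IMR90 groups included SULT1C4, SULT1A1, CYP27B1, CYP4V2 and CYP2S1. Both comparisons use the same Huh7 libraries and the same IMR90 control, so they are not independent of each other. SULT1C4 rose in Huh7 and fell in IMR90, and its effect differed by 2.13 ± 0.27 (log2; adjusted p = 1.2e-08) from that in the libraries labelled set 1. SULT1A1 differed by -2.24 ± 0.40 against set 2 (adjusted p = 1.3e-05) and, with an adjusted p of 0.0023, by -1.66 ± 0.45 against the libraries labelled set 1. CYP27B1 differed by -1.33 ± 0.31 and -1.70 ± 0.31, and CYP4V2 by -0.79 ± 0.17 and -0.98 ± 0.17, in the same order. CYP2S1, which rose in both IMR90 sets, differed by -0.65 ± 0.11 and -1.19 ± 0.11. The SULT1A1 differences rest on 7 to 21 counts in an IMR90 library. Of the SULT1A1 exon bases, 26.1% overlap other genes in IMR90, against 5.29% in Huh7.

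CYP2U1 differed from the 2 IMR90 groups in opposite directions, by -0.73 ± 0.26 against set 2 and by 1.67 ± 0.27 against the other group, with an adjusted p of 0.021 and 2.2e-06. Its difference against set 2 was lost without Huh7 control replicate 1 (adjusted p = 0.076) or 3 (-0.46, adjusted p = 0.21), IMR90 control replicate 3 (0.056) or set 2 replicate 1 (0.054). CYP3A5 differed by -1.37 ± 0.18 from the libraries labelled set 1 (adjusted p = 2.9e-08). CYP1B1 differed by 1.15 ± 0.30 from the libraries labelled set 1 (adjusted p = 0.0014). Without set 2 replicate 3, whose description names Huh7 while its other labels name IMR90, 2 members rather than 4 had a higher effect in Huh7 than in set 2, and without IMR90 control replicate 3, 4 rather than 7 had a lower one.

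**Figure D5:**
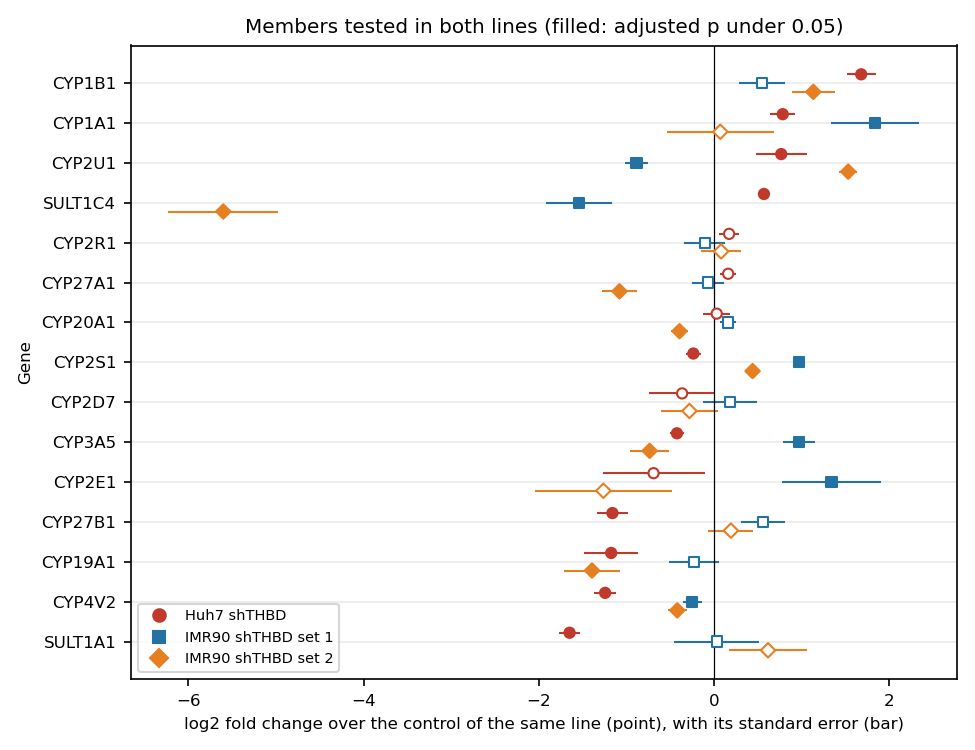
log2 fold change over the control of the same line for 15 of the 16 members tested in both lines, with standard errors as bars; circles are Huh7, squares the libraries labelled set 1 and diamonds set 2, filled where the adjusted p is under 0.05. CYP4F11 is left out because its IMR90 control is at 0, and the SULT1C4 diamond rests on 2 counts in set 2; CYP2U1 and CYP3A5 have the squares and diamonds on opposite sides of 0.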

How the data were processed

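RNA-seq gene counts from 15 libraries were used, 9 of IMR90 and 6 of Huh7, grouped by the labels. The authors deposited raw counts of reads per gene in 1 table per line. Reads were handled with fastp, STAR and featureCounts on GRCh38, per the submitters' processing notes. Per the file headers, the IMR90 table came from featureCounts 2.0.1 with GENCODE 38, with no option for strand, multi-mapping or multi-overlapping fragments, so fragments in exons shared by genes were not counted. For Huh7, the sources used here give no such options. Relatives such as the UGT1A, UGT2B and CYP3A genes share reads, so summed family counts were tested as well.

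From the deposited counts, CPM was computed on the total count of a library. Each line was fitted on its whole table with edgeR 4.0.16 in R 4.3.3 (filterByExpr, TMM scaling, quasi-likelihood test, Benjamini-Hochberg adjustment over all genes, threshold 0.05), and a joint fit over gene names in both tables compared the effects between lines. The filter also keeps genes that are high enough in 1 group alone, which are then tested only through that group. The fit was run on simulated counts with changes of known size. That checked the direction and size of changes it recovered, with no limit set on false calls. Alternatives were DESeq2 1.42.0, limma 3.58.1 (voom), other scalings and filters, a replicate block, summed families and leaving out each library. Called members whose group mean reached 1 CPM were named, at most 12 in each direction, with the 10 highest per kilobase in each line and at most 3 genes of 5 CPM or more per supporting list; CYP1A1 and CYP2E1 in IMR90, AHR in Huh7, and further supporting genes that rose or fell in small numbers were named after their values were seen. The members and lists were chosen with earlier results of these data known. Upstream sequences came from RefSeq (GRCh38.p14), in which 62 of 86 members matched; the motifs were chosen with values known. Some single genes counted in the totals are not reported here by name.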

Additional observations from a re-analysis of the deposited data

Results flagged for a closer look

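The effect of shTHBD in Huh7 differed from that in IMR90 by a test of the difference in members that include those below, given as the Huh7 log2 fold change minus the IMR90 one (edgeR, joint fit). Against set 2, the difference was 6.23 for SULT1C4, 1.41 for SULT1C2, 1.27 for CYP27A1 and 0.45 for CYP20A1. The SULT1C2 difference, which rests on 3 to 14 counts in an IMR90 library, was lost without IMR90 control replicate 1 (adjusted p = 0.111, edgeR) or set 2 replicate 1 (0.0574) or 3 (0.0737). That of CYP20A1 was lost in 8 of the fits that leave out 1 library (adjusted p from 0.0524 to 0.151) and with upper-quartile scaling, voom or the replicate block. It was -4.72 for CYP2B6, -3.57 for CYP4F3, -2.235 for SULT1A1, -1.325 for CYP27B1, -0.79 for CYP4V2, -0.73 for CYP2U1 and -0.65 for CYP2S1.

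Against the libraries labelled set 1, it was 2.13 for SULT1C4, 1.67 for CYP2U1, 1.20 for SULT1C2 and 1.15 for CYP1B1. Here the SULT1C2 difference was lost without IMR90 control replicate 1 (adjusted p = 0.191, edgeR) or set 1 replicate 1 (0.123) and with voom (0.0614). It was -8.38 for CYP4F11, -1.70 for CYP27B1, -1.655 for SULT1A1, -1.37 for CYP3A5, -1.185 for CYP2S1 and -0.98 for CYP4V2. In IMR90, CYP2B6 had counts in 1 library only (4, set 2 replicate 2), CYP4F3 had at most 2 counts in a library, CYP4F11 had none in the control, and SULT1C4 had 2 in all of set 2, so the fitted values of these 4 genes are no bound. Without set 2 replicate 2 the CYP2B6 difference was -1.01 (adjusted p = 1.0, edgeR).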

How the results depend on the processing

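With the filter at a mean of 1 CPM, 3 rather than 5 members were higher in the libraries labelled set 1 than in the control, since CYP1A1 and CYP2E1 fell below that filter and were not tested. Leaving out 1 library gave 2 to 4 members with a higher and 4 to 8 with a lower effect in Huh7 than in set 2; the other counts of members stayed within 1.5 times their values. The UGT2B sum in Huh7 (1.08) has the opposite sign to UGT2B4 and UGT2B7, because UGT2B15 carries its rise; it is no value of these genes. With 1 library left out, values that did not pass changed sign for CYP27A1 (-0.206 to 0.0857), CYP2R1 (-0.29 to 0.19) and CYP2D7 (-0.0198 to 0.51) in the libraries labelled set 1, and for CYP2R1 (-0.11 to 0.37) and CYP2D7 (-0.49 to 0.0445) in set 2; the cause was not tested. Over the single members, 1491 alternatives kept direction and side of the threshold, 61 lost the call, 6 gained it and 9 changed sign, 2 of these only by that sum. Deviations of same-numbered samples were hardly correlated (-0.0859 to 0.0196), which cannot tell whether the samples were paired, since counting noise also lowers such values. With the replicate block 9 members were higher and 15 lower in Huh7. With that block, 3 rather than 4 members had a higher effect in Huh7 than in set 2, CYP20A1 being lost (adjusted p = 0.0625, edgeR). Upper-quartile scaling moved the median of all genes between the sets from -0.03 to -0.13 on the log2 scale. In IMR90, 68 members were too low to test, 40 of them with no count in any library; whether deeper sequencing would show them was not tested.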
